A study of Homo sapiens with 27 samples.

Results

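The long arm of chromosome 7, 7q, was examined for RNA 3′ ends that were lower in A549R cells than in A549 cells. The study counted the 3′ ends of poly(A)+ RNA by 3′-seq in 3 human lines of non-small cell lung cancer, H358, A549 and A549R, and its design sets resistant against cisplatin-sensitive cells. A549R was taken to be the resistant counterpart of A549; the sources used here do not say how it was derived. The series held 27 libraries in 9 groups of 3. Cytosol came from A549R cells given cisplatin or the vehicle DMSO, and from A549 cells given cisplatin or DMSO, which makes 12 libraries. Heavy polysomes came from A549 cells given cisplatin or DMSO (6 libraries). Whole-cell RNA came from H358 cells given cisplatin, oxaliplatin or DMSO (9 libraries). Both platinum compounds were used at 100 µM, and all cells were grown in the same serum-containing medium.

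Cytosol peaks on one strand that shared 1 base or more were joined across the 12 libraries, and a merged peak became a member if it lay between position 62000000 and the end of chromosome 7 and was listed in all 12. Positions are those of the human build hg19, counted from 1. This gave 498 members among 16902 merged peaks of the whole genome listed in all 12, which are called measured peaks. In all, 5873 merged cytosol peaks lay on 7q, and 155 of them were listed in 11 of the 12 libraries. The first member, chr7:62970920-62971062 on the minus strand, had a log2 difference (A549R minus A549) of 0.98 ± 0.25 (SE) in DMSO, and the last measured peak before the arm, chr7:57260016-57260045 on the plus strand, had -0.62 ± 0.43. The fall in A549R is what the region was chosen for, so all values of A549R against A549 are a description and carry no test.

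A 3′ end marks where a transcript is cut and given its poly(A) tail, and one gene can have several such ends. The count at an end follows how much of that transcript form the sample holds, whatever its length. From the centromere outward, 7q carries CDK6 (a cell-cycle kinase), TRRAP (a chromatin regulator), MCM7 (a subunit of the replicative helicase), MET (a receptor tyrosine kinase), BRAF (a signalling kinase) and EZH2 (a histone methyltransferase), in the gene order of RefSeq. Peaks carry no gene names in the files and no annotation of their build was used, so members are named by position and are not assigned to these genes. Cisplatin and oxaliplatin bind DNA and form platinum adducts that block copying and transcription.

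Library totals ran from 3024814 counts in A549R DMSO replicate 3 to 7564772 in A549R DMSO replicate 1 among the cytosol libraries. The members had a median of 12.1 CPM, a count scaled by the library's size (defined with the processing), over the 12 libraries, and the least abundant had 2.51 CPM. The deposited lists were of 2 kinds. The A549R cytosol lists kept 76.0% to 77.5% of their peak numbers and the A549 cytosol lists 31.6% to 35.2%, so the line and the kind of list cannot be told apart in cytosol. Members are listed in both kinds. Nothing in the labels says that replicates came from separate cultures, so p-values measure only the spread between these libraries, which may be technical.

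The ends of distal 7q were lower in A549R than in A549, and the lower stretch was not limited to the 10 Mb from 95 Mb onward, called the 10 Mb block here. Over the 498 members the median log2 difference, A549R minus A549, was -0.37 in DMSO and -0.39 in cisplatin, against -0.01 and 0.01 over all measured peaks. It lay below 0 for 78.3% of members in DMSO and 75.9% in cisplatin, against 51.2% and 49.3% of all measured peaks. The 325 measured peaks of chromosome 7 before 62 Mb had medians of -0.03 in DMSO and -0.02 in cisplatin. A lower count in such bulk samples can stand for fewer cells that hold a transcript or for less of it per cell, and these cannot be told apart.

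The 106 members of the 10 Mb block had a median of -0.57 in DMSO, 0.674 of the A549 level, and -0.61 in cisplatin, 0.657 of the A549 level. In each treatment 91.5% of them lay below 0, and 91 did so in both treatments while 3 lay above 0 in both. The remaining members of the arm had medians of -0.31 in DMSO and -0.27 in cisplatin. That remainder was itself mixed. The 213 members that lay beyond the block inside the lower stretch described next had medians of -0.49 and -0.50, close to those of the 10 Mb block.

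The edges were mapped as the run of consecutive members whose log2 differences were best described by one inner and one outer median. With the run allowed any length, it began in DMSO at chr7:93516565-93516741 (minus strand) and ended at chr7:151819015-151819433 (plus strand), 329 members over 58.3 Mb. Its inner median was -0.52, or 0.699 of the A549 level, and the 169 members outside it had a median of -0.10. In cisplatin the run began at chr7:93515130-93516253 (minus strand) and ended at chr7:152551891-152552467 (plus strand), 334 members over 59.0 Mb, with an inner median of -0.53 and an outer median of -0.06. The runs of the treatments thus began at 2 neighbouring ends. The last member outside lay 0.312 kb before the start in DMSO but 1279 kb before it in cisplatin. At the distal edge the next member outside came 245 kb further in DMSO and 1512 kb further in cisplatin. Leaving out 1 library at a time moved the start between 92.2 and 93.6 Mb in DMSO and between 92.1 and 93.5 Mb in cisplatin, and the end between 151.8 and 155.6 Mb in DMSO and between 151.8 and 152.6 Mb in cisplatin. Single pairs of same-numbered libraries placed the edges less closely. In DMSO they began the run at 86.8, 93.6 and 92.2 Mb for replicates 1, 2 and 3 and ended it at 151.8, 151.8 and 129.5 Mb. In cisplatin they began it at 92.2, 93.5 and 92.1 Mb and ended it at 151.8, 155.6 and 152.3 Mb.

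When the run was limited to 20 Mb, as first planned, its place was less certain. It then covered 93.6 to 105.7 Mb in DMSO (120 members, inner median -0.60, outer -0.28) and 97.5 to 116.6 Mb in cisplatin (146 members, inner median -0.57, outer -0.24). Without A549R DMSO replicate 2 the DMSO run moved to 134.2 to 151.8 Mb, another piece of the same lower stretch. The run without a length limit was chosen after the data were seen, and the stretches named from it are those inside it in both treatments (distal, 329 members), before it (proximal, 139), beyond it (terminal, 25) and between the edges of the treatments (5).

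**Figure D1:**
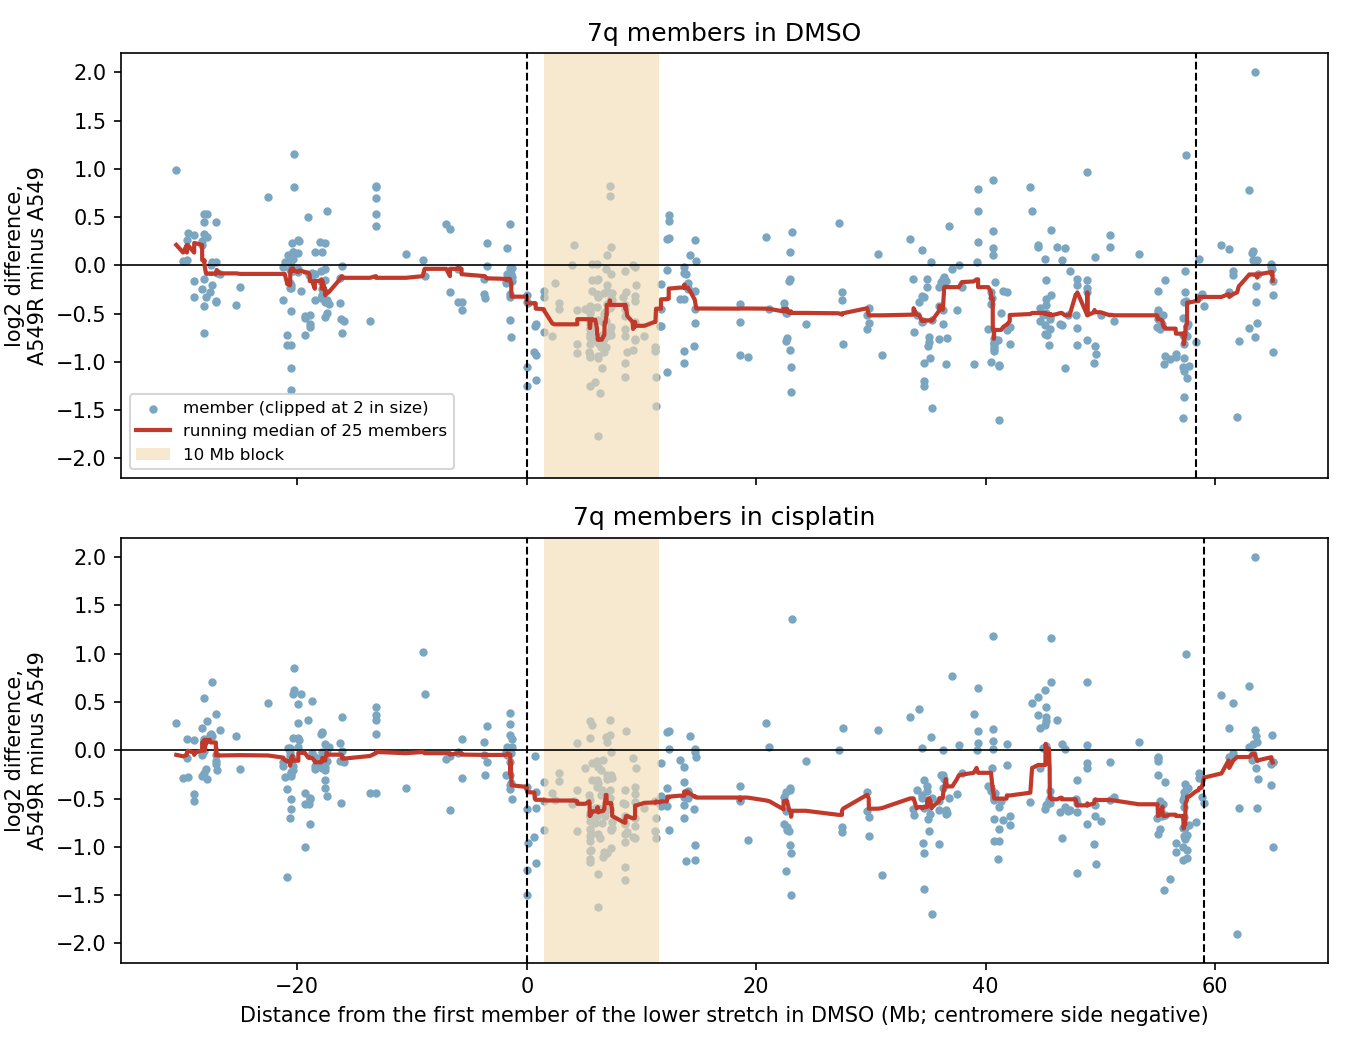
Log2 difference in cytosol, A549R minus A549 (vertical axis), of each of the 498 members against its distance in Mb from the first member of the lower stretch in DMSO (horizontal axis), with a running median of 25 members, for DMSO above and cisplatin below; shading marks the 10 Mb block and dashed lines the edges of the run without a length limit. The running median scatters around the outer medians of -0.10 and -0.06 on the centromere side and lies lower through most of the stretch, whose inner medians are -0.52 and -0.53.

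The 2 ends that flank the proximal edge in DMSO showed no step between them. The last member outside, chr7:93515130-93516253, had a log2 difference of -0.31 ± 0.30 (SE), and the first inside had -0.38 ± 0.30. The first member inside in DMSO, chr7:93516565-93516741, had 52.2, 35.2 and 24.8 CPM in A549R DMSO and 40.4, 37.5 and 71.5 CPM in A549 DMSO, groups that overlapped. Its neighbour 35 kb further, chr7:93551139-93551552 on the plus strand, had 13.6, 8.49 and 4.44 CPM in A549R DMSO and 24.4, 21.6 and 21.7 CPM in A549 DMSO. In cisplatin that end had 10.5, 9.71 and 3.09 CPM in A549R and 28.6, 22.03 and 16.7 CPM in A549, so every A549R library lay below every A549 library in both treatments.
The next end, chr7:93555400-93555852 on the plus strand, had 81.3, 58.2 and 63.5 CPM in A549R DMSO and 159, 140 and 123 CPM in A549 DMSO. Its log2 difference was -1.05 ± 0.20 (SE) in DMSO and -1.24 ± 0.20 in cisplatin. On the centromere side, the 12 members from 92 to 93 Mb had medians of -0.13 in DMSO and -0.08 in cisplatin. The 6 members from 94 to 95 Mb had -0.79 and -0.71. By these medians the change to the lower level lay around the 93 to 94 Mb window, whose 5 members had medians of -0.39 and -0.96. Its place is not sharp. Of the 12 members from 92 to 93 Mb, 11 were below 0 in DMSO and 7 in cisplatin. The 4 members from 95 to 96 Mb had medians of -0.30 and -0.48.

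Within the stretch the shift was similar from window to window. The 5 Mb windows from 95 and 100 Mb had medians of -0.58 (49 members) and -0.53 (57 members) in DMSO and -0.59 and -0.61 in cisplatin. The windows from 115 and 125 Mb had -0.49 (15 members) and -0.49 (30 members) in DMSO and -0.76 and -0.50 in cisplatin. That from 130 Mb had -0.46 in DMSO and -0.44 in cisplatin (35 members). In DMSO the library medians of the lines overlapped in the windows from 115 and 130 Mb. The windows from 140, 145 and 150 Mb had -0.52 (25 members), -0.54 (15 members) and -0.63 (29 members) in DMSO and -0.57, -0.56 and -0.58 in cisplatin. A smaller shift stood in the first window beyond the block, -0.23 in DMSO and -0.45 in cisplatin over 27 members. In the window from 135 Mb the treatments parted: the 28 members had a median of -0.47 in DMSO and 0.04 in cisplatin, and 21 of them were below 0 in DMSO and 13 in cisplatin. On the centromere side the windows were mixed. Those from 65 and 70 Mb had -0.09 and -0.07 in DMSO and 0.09 and -0.10 in cisplatin. The 28 members from 75 to 80 Mb had -0.30 in DMSO and -0.11 in cisplatin, with the library medians of A549R below those of A549 without overlap in both treatments. The window from 80 Mb had 0.47 and 0.34 (8 members) and that from 85 Mb -0.28 and -0.05 (10 members), with overlap. The DMSO values from 75 and 85 Mb were thus lower than that of the first window beyond the block. The last window, from 155 Mb, had -0.10 in DMSO and -0.07 in cisplatin.

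The distal members shared the shift across the features compared. On the plus strand 163 members had medians of -0.61 in DMSO and -0.57 in cisplatin, and on the minus strand 166 had -0.45 and -0.51. Split by mean CPM into high, middle and low levels, the medians were -0.59, -0.58 and -0.40 in DMSO and -0.56, -0.45 and -0.54 in cisplatin. Members with another member within 10 kb on their strand had -0.50 in DMSO and -0.54 in cisplatin, and members without one had -0.52 and -0.53. Ends of one cluster can belong to one gene and are not independent, but with 1 member taken per 10 kb cluster the 229 left had -0.52 and -0.53. Of the 329 distal members, 258 were below 0 in both treatments and 33 were above 0 in both.

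Each library showed the distal shift. The median over distal members of log2 CPM, each taken against its mean over the 12 libraries, was -0.25, -0.24 and -0.21 in A549R DMSO and 0.21, 0.24 and 0.27 in A549 DMSO. In cisplatin it was -0.21, -0.18 and -0.22 in A549R and 0.25, 0.31 and 0.31 in A549. The lines did not overlap, and the 3 libraries of each group lay close together. Libraries of the same number differed by -0.46, -0.48 and -0.48 in DMSO and by -0.47, -0.49 and -0.52 in cisplatin. For the proximal members the difference between the lines' means was -0.05 in DMSO and -0.04 in cisplatin. In DMSO their values were 0.047, 0.024 and 0.019 in A549R and 0.098, 0.055 and 0.092 in A549, a small difference but also without overlap. In cisplatin the lines overlapped. For the 25 terminal members the values in DMSO were 0.01, -0.13 and -0.09 in A549R and 0.23, 0.03 and 0.16 in A549, without overlap, a difference between the means of -0.21. In cisplatin they were -0.05, -0.26 and 0.16 in A549R and 0.16, 0.06 and -0.17 in A549, and the lines overlapped.

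**Figure D2:**
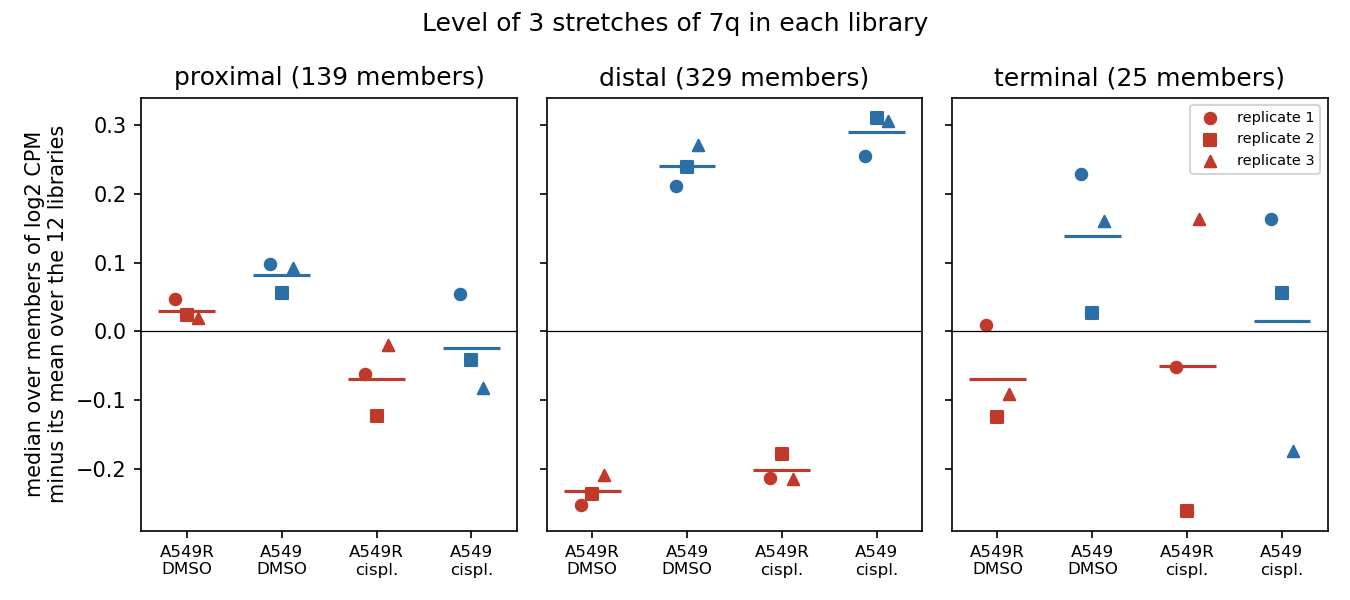
Median over members of log2 CPM minus its mean over the 12 cytosol libraries (vertical axis) for each library, by line and treatment (horizontal axis), in the proximal, distal and terminal stretches of 7q; points are libraries, bars group means. In the distal panel A549R libraries lie between -0.25 and -0.18 and A549 libraries between 0.21 and 0.31. In the proximal panel the lines overlap in cisplatin and lie close together, without overlap, in DMSO.

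Distal members also held a smaller part of the counts in A549R. The most abundant end of the stretch, chr7:134225623-134226667 on the plus strand, had 6112, 6171 and 2231 CPM in A549R DMSO and 11840, 10930 and 4108 CPM in A549 DMSO. In cisplatin it had 5419, 5410 and 3626 CPM in A549R and 7971, 8897 and 3133 CPM in A549. Replicate 3 was low in each of the 4 groups, and the lines overlapped. Without that end, the other 328 distal members held 1.17%, 1.19% and 1.18% of the counts in measured peaks in A549R DMSO and 1.40%, 1.44% and 1.53% in A549 DMSO. In cisplatin they held 1.20%, 1.14% and 1.16% in A549R and 1.42%, 1.47% and 1.56% in A549. Every A549R library was below every A549 library in both treatments. The proximal members held 0.391% to 0.454% in the A549R libraries and 0.401% to 0.446% in the A549 libraries.

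All 3 A549R libraries lay below all 3 A549 libraries for 140 of the 329 distal members (42.6%) in DMSO and 141 (42.9%) in cisplatin. Over all measured peaks this held for 11.7% in DMSO and 9.08% in cisplatin. For the 106 members of the 10 Mb block it held for 51 in DMSO and 54 in cisplatin, and the reverse order held for 0 in both, against 9.71% and 9.02% of all measured peaks. For the 139 proximal members it held for 12 in DMSO and 8 in cisplatin. By edgeR's quasi-likelihood test at an adjusted p under 0.05 over all measured peaks, 28 members were called lower (0.953% of all measured peaks were) and 2 higher (0.864%) in DMSO, 30 in either direction (1.82%). In cisplatin 18 were called lower (0.639%) and 1 higher (0.657%), 19 in either direction (1.3%). All 28 and all 18 lower calls were distal. With the replicate number as a block across lines and extracts, which the DMSO libraries' deviations call for, 70 members were called in DMSO, 66 lower (2.98% of all measured peaks) and 4 higher (2.43%), against 5.41% of all measured peaks in either direction. With 1 library left out the calls in DMSO ran between 3 and 35 and in cisplatin between 3 and 28. Since the region was chosen on this contrast, these counts are given as a description.

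The 10 most abundant members of the 10 Mb block were all lower on average in A549R in both treatments. The most abundant, chr7:99055782-99055984 on the minus strand, had 266, 248 and 336 CPM in A549R DMSO and 509, 457 and 422 CPM in A549 DMSO. In cisplatin it had 298, 339 and 355 CPM in A549R and 522, 503 and 533 CPM in A549. The lines did not overlap, and the log2 difference was -0.71 ± 0.15 (SE) in DMSO and -0.65 ± 0.15 in cisplatin. On the plus strand, chr7:99751490-99751840 had 103, 88.0 and 86.4 CPM in A549R DMSO and 170, 149 and 165 CPM in A549 DMSO. In cisplatin it had 137, 130 and 131 CPM in A549R and 190, 199 and 232 CPM in A549. Its log2 difference was -0.80 ± 0.15 in DMSO and -0.64 ± 0.15 in cisplatin, again with no overlap. 

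A pair of neighbouring ends on opposite strands had unlike values. The plus-strand end, chr7:99689269-99689845, had 160, 163 and 194 CPM in A549R DMSO and 287, 280 and 327 CPM in A549 DMSO, a log2 difference of -0.79 ± 0.17. The minus-strand end, chr7:99690347-99690746, had 157, 132 and 227 CPM in A549R DMSO and 200, 225 and 222 CPM in A549 DMSO, groups that overlapped, with a log2 difference of -0.33 ± 0.22. At chr7:100882885-100883188 on the minus strand the differences were -0.34 ± 0.15 in DMSO and -0.83 ± 0.15 in cisplatin. It had 159, 162 and 157 CPM in A549R cisplatin and 269, 284 and 295 CPM in A549 cisplatin. The difference of the cisplatin responses, A549R minus A549, was -0.48 ± 0.22 and did not pass the test (edgeR adjusted p = 1.00). The 5 remaining abundant ends had log2 differences between -0.68 and -0.32 in DMSO and between -0.82 and -0.32 in cisplatin.

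**Figure D3:**
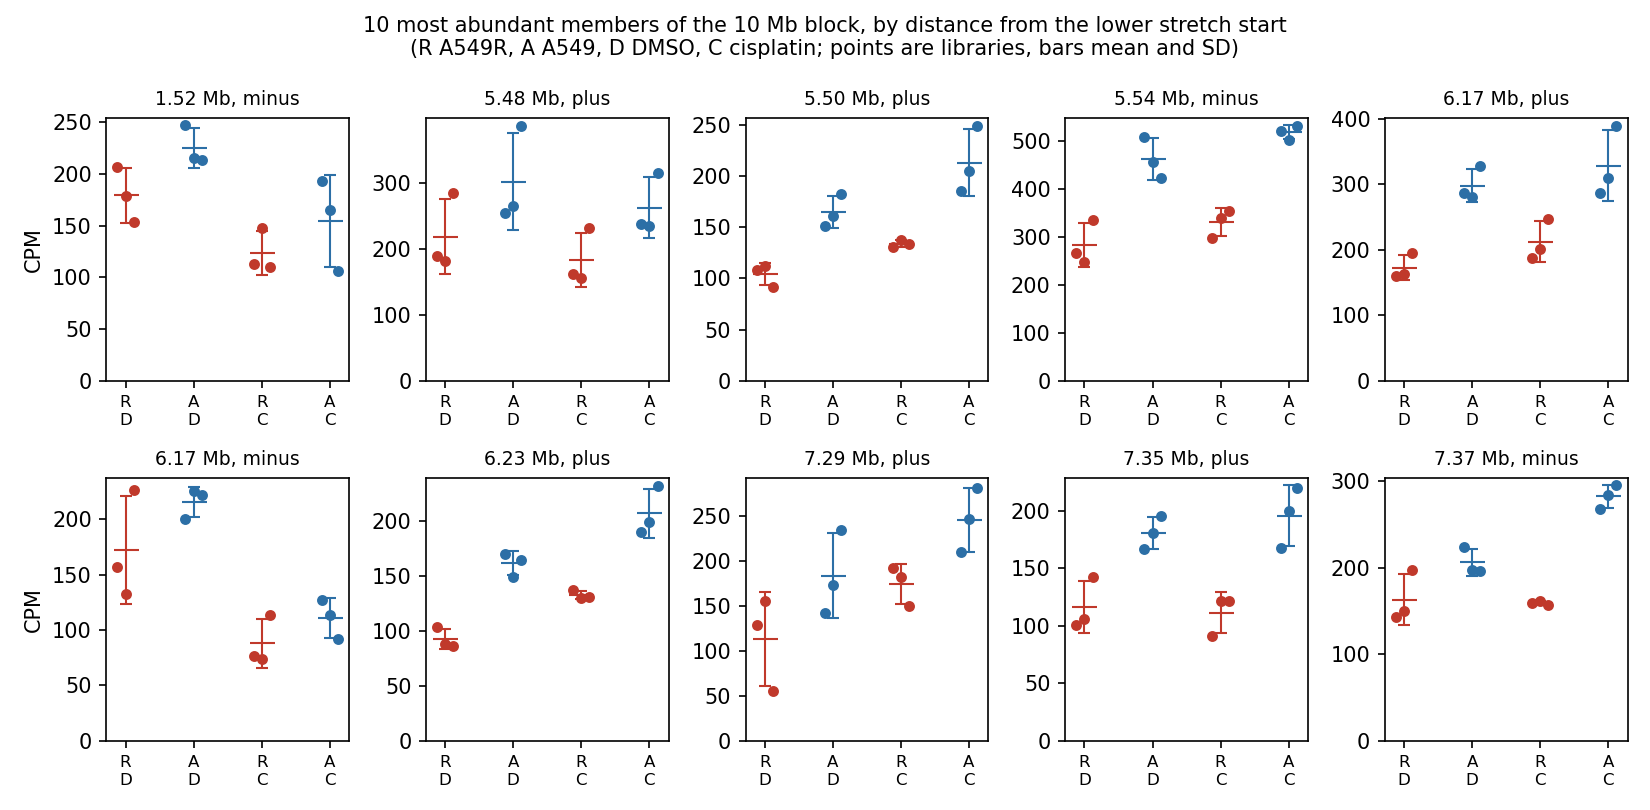
CPM (vertical axes, each from 0) of the 10 most abundant members of the 10 Mb block in A549R and A549 cytosol with DMSO or cisplatin (horizontal axes); points are libraries, bars the mean and SD of 3, and panel titles give the distance from the first member of the lower stretch and the strand. The A549R mean lies below the A549 mean in each panel and treatment. The libraries of the lines do not overlap in either treatment for the most abundant end and some others. For the rest they overlap in DMSO, cisplatin or both.

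Single ends differed by more than the stretch as a whole. The lowest of the arm with at least 50 counts on average was chr7:128808345-128808678 on the plus strand, with 5.81, 4.37 and 6.35 CPM in A549R DMSO and 16.3, 16.9 and 11.3 CPM in A549 DMSO. Its log2 difference was -1.47 ± 0.27 in DMSO and -1.70 ± 0.25 in cisplatin. At chr7:116557814-116559440 on the plus strand A549R DMSO had 17.4, 18.4 and 22.9 CPM and A549 DMSO 45.7, 53.6 and 44.3 CPM. That end differed by -1.31 ± 0.23 in DMSO and -1.06 ± 0.23 in cisplatin. Neither end's lines overlapped. Among 10 Mb block members with at least 50 counts on average, chr7:102065690-102065986 on the plus strand had the lowest mean of both treatments. It had -1.01 ± 0.25 in DMSO and -0.96 ± 0.23 in cisplatin. The block's chr7:100470794-100471138 on the plus strand had -0.74 ± 0.32 in DMSO and -1.06 ± 0.30 in cisplatin.

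Of the 498 members, 66 were above 0 in both treatments, 33 of them distal. The end chr7:156985016-156985586 on the plus strand, in the terminal stretch, had 102, 93.4 and 85.7 CPM in A549R DMSO and 4.35, 4.69 and 18.9 CPM in A549 DMSO. In cisplatin it had 103, 107 and 102 CPM in A549R and 34.0, 4.12 and 28.4 CPM in A549. A549R was above A549 in every library, with a log2 difference of 3.41 ± 0.61 in DMSO and 2.25 ± 0.56 in cisplatin, and the spread lay among the A549 libraries. Within the 10 Mb block, chr7:100780675-100781723 on the plus strand had 89.3, 141 and 88.3 CPM in A549R DMSO and 6.52, 16.3 and 162 CPM in A549 DMSO. A549 replicate 3 stood above all A549R libraries there, and also in cisplatin, with 71.9, 118 and 70.2 CPM in A549R and 21.6, 25.9 and 164 CPM in A549. The log2 differences of 0.82 ± 0.88 and 0.31 ± 0.87 are within their error. At chr7:150936053-150936249 on the minus strand, close to the distal edge, A549R had 27.2, 30.6 and 17.8 CPM and A549 had 7.83, 9.99 and 17.9 CPM in DMSO, a log2 difference of 1.14 ± 0.32, and the lines overlapped at replicate 3. In cisplatin that end had 35.9, 40.5 and 37.7 CPM in A549R and 14.3, 17.1 and 26.1 CPM in A549, without overlap, a log2 difference of 0.99 ± 0.30.

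Peaks that are not members were compared by listing alone. Of 499 peaks of the distal stretch listed in all 6 A549 cytosol libraries, 170 (34.1%) were missing from at least 1 A549R list, against 51 of 191 (26.7%) in the proximal stretch and 26.1% of such peaks genome-wide. A549R DMSO replicate 3, the library with the lowest total, alone lacked 152 of the 499. On the arm 20 such peaks (2.73%) were in no A549R list, 16 of them distal (3.21%), against 2.60% genome-wide. They are not read as lost in A549R, because 17 of the 20 were in none of the 15 polysome and H358 lists either. The most abundant, chr7:145694424-145694528 on the plus strand, had counts of 715 to 2020 in the 6 A549 cytosol lists and was listed nowhere else.

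The A549 polysome libraries give A549 values that the choice of region did not use, from another extract. Of the members, 445 were listed in all 6 of them. A549R cytosol minus A549 polysomes had a median log2 difference over distal members of -0.45 in DMSO and -0.58 in cisplatin (301 members), against -0.01 and -0.04 over proximal members (116) and 0.01 and -0.02 over all 14977 peaks tested. Polysomes minus cytosol within A549 had distal medians of 0.07 in DMSO and 0.09 in cisplatin. For the 10 Mb block the medians of A549R cytosol minus A549 polysomes were smaller, -0.33 in DMSO and -0.37 in cisplatin, and those of A549 polysomes minus A549 cytosol were -0.31 and -0.19 (101 members). Single windows scattered with the extract. The window from 70 Mb, before the stretch, had -0.47 in DMSO and -0.57 in cisplatin (38 members), while inside the stretch the window from 110 Mb had 0.59 and 0.76 (6 members) and that from 120 Mb had 0.51 and 0.15 (9 members). For terminal members the medians of A549R cytosol minus A549 polysomes were -0.55 and -0.29 (23 members). The A549R libraries are the ones used to choose the region, so these are values side by side and not a second test.
With only the polysome libraries 1 and 2, whose lists are of the same long kind as the A549R lists, the distal medians were -0.45 in DMSO and -0.51 in cisplatin, the proximal medians 0.06 and 0.07, and the block medians -0.18 and -0.30. Of the 445 members, 146 were called lower (22.6% of all tested) and 65 higher (22.1%) in A549R cytosol than in A549 polysomes in DMSO, 211 in either direction (44.7%). In cisplatin 161 were called lower (24.8%) and 62 higher (22.9%), 223 in either direction (47.7%).

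**Figure D4:**
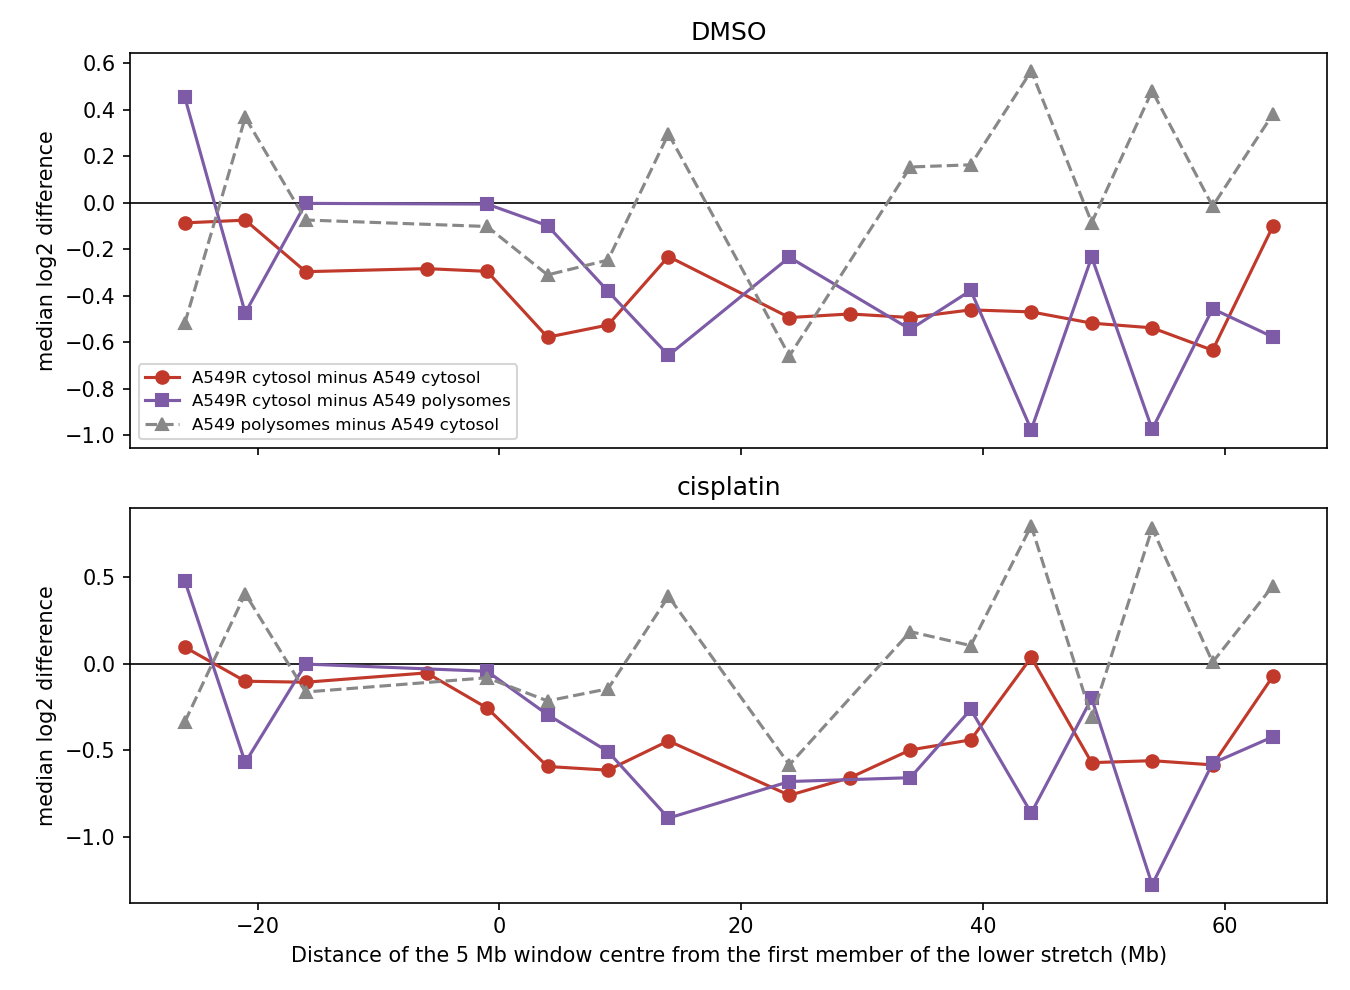
Median log2 difference over the members of each 5 Mb window (vertical axis) against the window's distance in Mb from the first member of the lower stretch (horizontal axis), for DMSO above and cisplatin below, in windows with at least 10 members. Circles show A549R cytosol minus A549 cytosol, squares A549R cytosol minus A549 polysomes and triangles A549 polysomes minus A549 cytosol; the squares scatter more widely than the circles, and some lie well below 0 before the edge too.

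Polysome and cytosol levels of the members differed in A549 about as often as those of other peaks. Polysome-bound messenger RNA is the fraction under translation. In DMSO 90 of 445 members were called higher in polysomes (22.7% of all tested) and 100 lower (22%), 190 in all (44.7%). In cisplatin 98 were called higher (26.2%) and the rest of the calls were lower (22.4%), 203 in all (48.5%). The abundant end of the 10 Mb block at chr7:99055782-99055984 was among the lowest, with 161, 136 and 116 CPM in polysomes and 526, 468 and 436 CPM in cytosol in DMSO, a log2 difference of -1.79 ± 0.17 (edgeR adjusted p = 6.98e-07). The minus-strand end chr7:99690347-99690746 went the other way, with 842, 805 and 787 CPM in polysomes and 207, 231 and 229 CPM in cytosol, a log2 difference of 1.87 ± 0.23 (edgeR adjusted p = 6.54e-06). No library of one extract overlapped the other at these ends. CPM values here are over the peaks listed in all 18 libraries and so differ slightly from those above.

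Cisplatin changed single ends of 7q in both lines, with medians near 0 over the distal stretch. In A549R 5 members were called higher (2.32% of all measured peaks) and 18 lower (2.2%), 23 in all (4.52%), and the median cisplatin change was 0.04 over distal and -0.11 over proximal members, against 0.01 over all measured peaks. In A549 7 were called higher (3.12%) and 19 lower (4.03%), 26 in all (7.15%), with medians of 0.07 over distal and -0.15 over proximal members, against -0.01 over all measured peaks. The called shares of the members in either direction, 4.62% in A549R and 5.22% in A549, lie near or below those of all measured peaks. By direction, 1% of members were called higher in A549R and 3.61% lower, the latter above the 2.2% of all measured peaks. In A549 1.41% were called higher and 3.82% lower. Same-numbered libraries of both treatments deviated together in each line. With the replicate number as a block, 30 members were called higher (7.4%) and 46 lower (7.35%) in A549R, 76 in all (14.7%), and 37 higher (7.67%) and 50 lower (9.49%) in A549, 87 in all (17.2%). The difference of the cisplatin responses, A549R minus A549, was called by edgeR for 0 members (0% of 16902). By edgeR 8 members had an unadjusted p under 0.05 (1.89% of all measured peaks had). DESeq2 called 0, with 7 at an unadjusted p under 0.05, a count given without a share over all peaks. With 1 library left out the calls ran between 4 and 33 in A549R and between 7 and 42 in A549.

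The 3 falls with the lowest adjusted p were at the same distal ends in A549R, A549 and A549 polysomes. The end chr7:133750245-133750518 on the plus strand had 1.83, 3.51 and 3.09 CPM in A549R cisplatin and 25.9, 20.9 and 25.4 CPM in A549R DMSO. In A549 it had 1.68, 3.71 and 5.55 CPM with cisplatin and 42.4, 32.6 and 38.8 CPM with DMSO. Every cisplatin library was far below every DMSO library, and the log2 change was -3.10 ± 0.34 in A549R (edgeR adjusted p = 0.000433) and -3.39 ± 0.33 in A549 (edgeR adjusted p = 0.000143). In A549 polysomes it had 4.13, 6.43 and 10.5 CPM with cisplatin and 154, 133 and 129 CPM with DMSO, a log2 change of -4.27 ± 0.32 (edgeR adjusted p = 5.67e-07).

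The end chr7:127732217-127732665 on the plus strand fell in all 3 lines. It had 15.1, 17.3 and 30.3 CPM in A549R cisplatin and 85.1, 80.04 and 80.6 CPM in A549R DMSO, and 20.2, 12.1 and 14.0 CPM in A549 cisplatin against 107, 97.9 and 114 CPM in A549 DMSO. The log2 change was -1.98 ± 0.26 in A549R (edgeR adjusted p = 0.00109) and -2.79 ± 0.26 in A549 (edgeR adjusted p = 0.000143). In H358 whole cells it had 8.42, 19.2 and 13.2 CPM with cisplatin and 92.7, 56.3 and 73.9 CPM with DMSO, a log2 change of -2.50 ± 0.32 (edgeR adjusted p = 1.03e-05). Treated and untreated libraries did not overlap in any line. Another, chr7:106843183-106843522 on the minus strand, had 1.14, 1.89 and 2.78 CPM in A549R cisplatin and 11.8, 9.22 and 9.52 CPM in A549R DMSO. Its log2 change was -2.43 ± 0.35 in A549R (edgeR adjusted p = 0.00183), -2.68 ± 0.33 in A549 (edgeR adjusted p = 0.000565) and -2.11 ± 0.27 in polysomes (edgeR adjusted p = 0.000192).

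Rises with cisplatin were smaller. The end chr7:128505441-128505917 on the plus strand had 143, 172 and 164 CPM in A549R cisplatin and 89.5, 93.4 and 83.2 CPM in A549R DMSO, and 212, 268 and 303 CPM in A549 cisplatin against 155, 151 and 169 CPM in A549 DMSO. Both lines rose, by 0.85 ± 0.17 on the log2 scale in A549R (edgeR adjusted p = 0.0106) and 0.72 ± 0.16 in A549 (edgeR adjusted p = 0.0168), and A549R stayed below A549 in each treatment without overlap. The A549R call held in 16 of 18 alternatives and the A549 call in 13 of 18. At chr7:138745080-138745339 on the minus strand A549R cisplatin had 19.7, 16.7 and 10.5 CPM and A549R DMSO 4.24, 3.64 and 5.08 CPM, a log2 change of 1.90 ± 0.32 (edgeR adjusted p = 0.00513). In A549 cytosol that end had 11.2, 13.4 and 12.4 CPM with cisplatin and 4.78, 8.16 and 4.47 CPM with DMSO. Its log2 change in A549 was 1.06 ± 0.30 (edgeR adjusted p = 0.0466). A549 polysomes had 37.8, 35.2 and 56.4 CPM with cisplatin and 16.1, 13.2 and 13.2 CPM with DMSO there, a log2 change of 1.61 ± 0.27 (edgeR adjusted p = 0.00192).

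In A549 polysomes 12 of the 445 members were called higher with cisplatin (3.16% of all tested) and 11 lower (2.27%), 23 in all (5.43%). With the replicate number as a block, which the polysome libraries' deviations call for, 46 were called higher (9.38%) and 37 lower (7.95%), 83 in all (17.3%). With the long lists alone 6 were called, and with 1 library left out between 7 and 27, counts given without a share over all peaks tested. The median cisplatin change in polysomes was 0.12 over distal and -0.17 over proximal members, against 0.03 over all peaks tested.

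**Figure D5:**
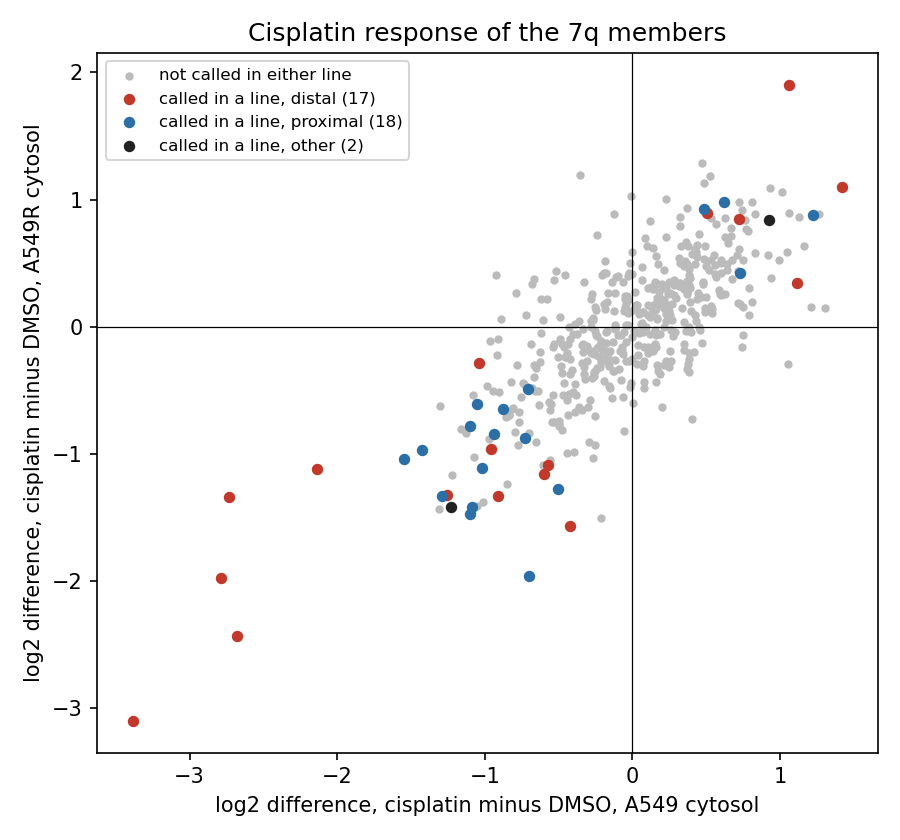
Log2 change with cisplatin against DMSO in A549R cytosol (vertical axis) and in A549 cytosol (horizontal axis) for the 498 members; grey points were called in neither line, coloured points in at least 1 line by edgeR at an adjusted p under 0.05, by stretch. The distal end at the lower left, chr7:133750245-133750518, had the lowest value in both lines, -3.10 in A549R and -3.39 in A549.

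In H358, a line outside the A549 pair, 311 members were listed in all 9 libraries. With cisplatin 36 were called higher (11.4% of 13895 peaks tested) and 39 lower (13.8%), 75 in all (25.2%), a share of 24.1% of the members. With all peaks of a mean count of at least 5 tested instead, 8 were called higher and 81 lower. No share over all peaks is given for that filter, so this split is not read as a result about the members. The distal median was -0.02, the proximal median -0.10 and the median of all peaks tested -0.04. The rises with the lowest adjusted p were at 4 neighbouring ends within chr7:142373610-142375531 on the plus strand. One of them, chr7:142374851-142375262, had 121, 171 and 137 CPM with cisplatin and 17.01, 17.8 and 18.5 CPM with DMSO, a log2 change of 3.01 ± 0.26 (edgeR adjusted p = 1.04e-07). The other 3 rose by 2.68 to 3.72 on the log2 scale. Being so close, they may share a transcript or reads. In the A549 pair the end chr7:142373916-142374061 of that cluster was not called, with a cisplatin change of -0.16 ± 0.49 in A549R and 0.10 ± 0.49 in A549.

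With oxaliplatin 8 members were called higher (1.05% of all tested) and 13 lower (3.6%) in H358, 21 in all (4.65%). Same-numbered libraries deviated together, and with the replicate number as a block 22 were called higher (5.3%) and 21 lower (8.9%), 43 in all (14.2%). The oxaliplatin lists are of the short kind and the DMSO lists of the long kind, so compound and list kind cannot be told apart. With all peaks of a mean count of at least 5 tested instead, 3 were called higher and 46 lower. Unlisted peaks entered that fit as 0 and no share over all its peaks is given, so this split is not read as a result about the members. Without H358 DMSO replicate 1, oxaliplatin replicate 2 or oxaliplatin replicate 3 the calls were 5, 4 and 4. The end chr7:112115972-112116259 on the plus strand had 55.2, 46.8 and 57.2 CPM with oxaliplatin and 6.28, 14.9 and 12.4 CPM with DMSO, a log2 change of 2.25 ± 0.30 (edgeR adjusted p = 8.83e-05). The terminal end chr7:156985016-156985586, which was higher in A549R than in A549, had 8.60, 17.7 and 24.7 CPM with oxaliplatin and 84.8, 103 and 115 CPM with DMSO in H358, a log2 change of -2.56 ± 0.34 (edgeR adjusted p = 8.34e-05). Libraries of the treated and untreated groups did not overlap at either end.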

How the data were processed

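The members and lists were chosen with earlier results of these data known. The deposited lists, 1 per library, hold a raw read count for each peak, not normalized by the authors, and the smallest count listed was 5. Per the submitters' processing notes, Bowtie2 2.2.5, SAMtools 1.1 and bedtools 2.17.0 were used, without roles; the notes name the build mm9, but the positions fit the human build hg19. How peaks were called and filtered is not stated in the labels. Per the labels' protocols, PCR of 16 cycles made the libraries, so counts are not independent molecules and errors cover counting and library spread only.

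Peaks were merged with Python 3.11.15. A peak missing from a list is not a count of 0, so only peaks listed in every library of a fit were tested: 16902 in 12 cytosol libraries, 14977 in 18 cytosol and polysome libraries and 13895 in 9 H358 libraries. The counts in these peaks ran from 1567276 in A549R DMSO replicate 3 to 4909357 in A549 cisplatin replicate 2 among the cytosol libraries. Fits used edgeR 4.0.16 (quasi-likelihood, TMM scaling, group means, Benjamini-Hochberg adjustment over all peaks tested) in R 4.3.3. CPM are edgeR values relative to the TMM-scaled counts in the peaks tested, so values in the polysome comparison differ slightly. DESeq2 1.42.0, other scaling, a filter at a mean count of at least 5 (with unlisted peaks entered as 0), blocks and leaving out libraries were alternatives, and the scripts were tested on simulated data.

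Replicate numbers were taken to pair libraries where every same-numbered pair's deviations from the group means correlated over 0.1. This held between treatments in A549 cytosol, A549R cytosol and A549 polysomes, between A549R and A549 in DMSO, between polysomes and cytosol, and between oxaliplatin and DMSO in H358. Between polysomes and cytosol the numbers are a weak guide. Cytosol replicate 1 correlated with polysome replicate 1 at 0.311 in DMSO and 0.318 in cisplatin, but with another polysome number at 0.428 and 0.458. It did not hold between A549R and A549 in cisplatin (lowest -0.0053) or between cisplatin and DMSO in H358 (lowest 0.0294).

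Members named were the 10 most abundant of the 10 Mb block, the ends beside each edge and the 4 strongest calls each way per comparison. Others were named among members with at least 50 counts on average. These were the 5 lowest and 3 highest of the 10 Mb block and the 3 lowest and 3 highest elsewhere on the arm. The most abundant end of the arm was named after its values were seen. No genome of the files' build was used here, so no sequences or gene assignments are given. The planned search for the edges was limited to 20 Mb, and the search without a limit was added after the data were seen.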

Additional observations from a re-analysis of the deposited data

Results flagged for a closer look

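In the 8 members from 60 to 65 Mb, the difference between A549R and A549 had opposite signs in the treatments: the mean of the library medians, A549R minus A549, was -0.183 in cisplatin and 0.225 in DMSO, with every pair of same-numbered libraries on its side. The library medians of the lines overlapped in both treatments, and replicate numbers were not taken to pair the lines in cisplatin. In the 28 members from 75 to 80 Mb, the library medians moved with opposite signs in the lines: their mean, cisplatin minus DMSO, was 0.112 in A549R and -0.030 in A549. The opposite signs hold for these library medians alone, since the median fitted cisplatin change of the same members was 0.14 in A549R and 0.16 in A549. Neither difference was tested, and both windows lie on the centromere side of the lower stretch.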

How the results depend on the processing

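The distal stretch was the run chosen as lower in A549R from these same values, so the sign of its shift was set by that choice. That sign stayed the same under every alternative run, which is no test of it, since the alternatives reused the same libraries. Distal minus the rest of the arm was -0.414 in DMSO and -0.455 in cisplatin; it was -0.545 in DMSO over members with at least 50 counts, and ran from -0.460 to -0.364 in DMSO and from -0.526 to -0.396 in cisplatin with 1 library left out. The difference between the 10 Mb block and the rest was -0.261 in DMSO and -0.335 in cisplatin; it was -0.175 and -0.200 over members with at least 50 counts and -0.240 in cisplatin with libraries 1 and 2 alone, and with 1 library left out it ran from -0.314 to -0.224 in DMSO and from -0.385 to -0.282 in cisplatin. The run limited to 20 Mb moved. In DMSO, members with at least 50 counts put it at 134.21 to 150.84 Mb, and leaving out 1 library gave starts of 92.236 to 134.21 and ends of 100.47 to 151.82 Mb, the highest of both without A549R DMSO replicate 2. In cisplatin it began at 93.514 Mb with ends joined within 500 bases and at 93.517 Mb with libraries 1 and 2 alone, either replicate block or least squares. It ended there at 105.21 Mb (joined ends, least squares), 107.56 Mb (libraries 1 and 2) or 105.73 Mb (either block), with starts of 93.515 to 98.992 and ends of 105.73 to 116.56 Mb with 1 library left out. Without the limit, the DMSO run began at 92.088 Mb with the replicate block or least squares and ended at 155.57 Mb with least squares. With 1 library left out, starts then ran from 92.236 to 93.551 Mb in DMSO and 92.088 to 93.515 Mb in cisplatin, and ends from 151.82 to 155.57 and from 151.82 to 152.55 Mb.

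Counts of called members depended on the setting, and the cause was not tested. Without a share over all peaks tested, a count does not compare members with other peaks, and the mean count filter changes the peaks tested. For A549R against A549 the replicate block called 8.5% of all measured peaks in DMSO and 6.99% in cisplatin. The block across lines and extracts called 5.41% and 3.67% there. For cisplatin it called 9.45% of the peaks tested in A549R, 12% in A549 and 10.3% in polysomes. For A549R against A549 in DMSO (30) they were 49 by DESeq2, 92 with libraries 1 and 2 alone, 99 at a mean count of at least 5, 89 with the replicate block and 70 with the block across lines and extracts; in cisplatin (19) they were 49, 83, 103, 88 and 56. For cisplatin in A549R (23) they were 36 by DESeq2, 93 with libraries 1 and 2, 5 at a mean count of at least 5, and 76 and 44 with the blocks; in A549 (26) they were 3 at a mean count of at least 5 and 87 and 57 with the blocks. In polysomes (23) they were 37 by DESeq2, 6 with the long lists, 2 at a mean count of at least 5 and 83 and 41 with the blocks. For oxaliplatin in H358 (21) they were 49 at a mean count of at least 5 (3 higher, 46 lower) and 43 with the block. With 1 library left out, calls for A549R against A549 in DMSO ran from 3 to 35: 5 and 6 without A549R DMSO replicates 1 and 2, 19 without A549R cisplatin replicate 1, 6 and 3 when replicate 1 or 2 of A549 DMSO was dropped, and 15 when replicate 2 of A549 cisplatin was. In cisplatin they ran from 3 to 28: 8 without A549R DMSO replicate 1 or 2, 3, 5 and 10 without A549R cisplatin replicates 1, 2 and 3, 12 and 7 when replicate 1 or 2 of A549 DMSO was dropped, and 9 and 4 when replicate 1 or 2 of A549 cisplatin was. For cisplatin in A549R they ran from 4 to 33: 4, 9 and 15 without A549R DMSO replicates 1, 2 and 3, 6 without A549R cisplatin replicate 1 or 2, and 13 without A549 DMSO or cisplatin replicate 2. In A549 they ran from 7 to 42: 42, 7 and 7 without cisplatin replicates 1, 2 and 3, and 13 and 7 without DMSO replicates 1 and 2. In polysomes they ran from 7 to 27: 7 without cisplatin replicate 3, and 8, 9 and 14 without DMSO replicates 1, 2 and 3. For oxaliplatin in H358 they ran from 4 to 21: 4 without oxaliplatin replicate 2 or 3, 13 without cisplatin replicate 2 and 5 without DMSO replicate 1. For cisplatin in H358 they ran from 51 to 80, with 8 higher and 81 lower at a mean count of at least 5 against 36 and 39, and for polysomes against cytosol between 152 and 210 with DMSO, and between 171 and 218 with cisplatin. The replicate block reversed no named cisplatin, oxaliplatin or polysome call.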
